A study of Mus musculus with 24 samples.

Results

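RNA from mouse tumours that overexpressed the microRNA miR-21-5p (OE) was compared with RNA from tumours that carried an empty vector (NC). Only tumours whose written label and coded identifier name the same cell line were compared. All tumours grew under the skin of the flank of female C3H mice aged 6 to 8 weeks, from about 1000000 injected SCC7 cells, a mouse squamous cell carcinoma line. A cell type field reads OE for all 24 tumours of the series, and it was not used to group them. Each tumour also has a written label and a coded identifier, and the 2 name different cell lines for 8 of the 24 tumours. The comparison takes the other 16, with 8 OE tumours (identifiers EO-701, EO-703, ES-706, EIO-713, EI-742, EI-745, EI-752 and EO-762) and 8 NC tumours (O-723, IO-726, IO-728, I-732, I-736, I-739, S-759 and S-761).

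The tumours also differed in treatment, which began at a mean volume near 300 mm3. Radiation was 8 Gy of X-rays a day for 3 days, given to the tumour alone under anaesthesia. Olaparib, which inhibits the PARP enzymes that act at DNA breaks, was injected at 50 mg/kg 2 h before each dose and once more on the day after the last. The letters of the code were read as E for OE, I for irradiation, O for olaparib and S for sham. By these letters, 4 OE tumours (EIO-713, EI-742, EI-745 and EI-752) and 5 NC tumours (IO-726, IO-728, I-732, I-736 and I-739) were irradiated. Unirradiated by code were 4 OE tumours (EO-701, EO-703, ES-706 and EO-762) and 3 NC tumours (O-723, S-759 and S-761). By code 4 OE and 3 NC tumours received olaparib. Among the unirradiated these were OE tumours EO-701, EO-703 and EO-762 and NC tumour O-723. Among the irradiated they were OE tumour EIO-713 and NC tumours IO-726 and IO-728. Olaparib was thus uneven between OE and NC within the unirradiated and the irradiated tumours, and its part in their differences was not tested. The agreement covers the cell line only. Written and coded labels differ on radiation for 6 of the 16 tumours and on olaparib for 11, and agree on all 3 items for 5. Radiation by code was a term of the model, and olaparib was not. The sources used here do not say how many clones the OE and NC cells came from, so the cell line effect includes any difference between the clones or pools that carried the vectors. The study asked whether extra miR-21-5p makes tumours resist radiation through alternative end joining, a route of double-strand break repair that often leaves mutations. A tumour is 1 mouse's sample. Its RNA mixes cancer cells with host cells, so fewer cells of a type and less RNA per cell cannot be told apart.

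MicroRNAs guide the Argonaute proteins to messenger RNAs. Bases 2 to 8 of the microRNA, the seed, pair with sites in 3′ untranslated regions, and paired messengers are translated less and often degraded. miR-21 is among the most abundant microRNAs in carcinomas, and its best-known targets are brakes on growth, invasion and survival. In the mouse the mature strand comes from Mir21a, at chr11:86584120-86584141 on the minus strand of GRCm38.p6 (RefSeq), inside the transcribed region of Vmp1. Its sequence is shown, with the seed in capitals, because the search for sites rests on it.
mmu-miR-21a-5p: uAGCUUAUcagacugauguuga
A match of 8 bases to the seed, ATAAGCTA, lies in the 3′ UTR of these target genes that are described further on. The match is in capitals, with 11 bases on either side, on the strand of the gene.
Pdcd4, chr19:53929421-53929450, plus strand: tgggtgttctgATAAGCTActttctaagtg
Spry1, chr3:37643862-37643891, plus strand: taagtgcttaaATAAGCTAtatattaatct
Timp3, chr10:86348216-86348245, plus strand: ttgagctttcaATAAGCTAtagctttgttt
Reck, chr4:43944396-43944425, plus strand: tacagtttgaaATAAGCTAttaatgtaata
Spry2, chr14:105892487-105892516, minus strand: acccacattgcATAAGCTAaagcagccaac

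The libraries held 37099055 to 40004502 counted reads each, and 15375 genes were tested. Levels are given in CPM, reads of a gene per 1000000 counted, after TMM scaling. The keratins that define squamous epithelium were scarce. Krt5 and Krt14, the paired keratins of its basal cells, lay below 2.2 CPM in 14 of the 16 tumours, and above 30 CPM in NC tumours I-736 and S-761 alone. The summed level of 22 skeletal muscle genes was 21200 CPM in NC tumour I-732, against 26.0 to 2240 CPM in the other 15. NC tumour I-739, irradiated by both labels, had levels like those of the unirradiated tumours. Its Cdkn1a level, a p53 target that stops the cell cycle, was 340 CPM, against 697 to 721 CPM in the other 4 irradiated NC tumours and 190 to 341 CPM in the 7 unirradiated tumours. The proliferation marker Mki67 stood at 389 CPM in tumour I-739, against 72.5 to 179 CPM in those 4. The tumours were kept in the groups of their labels. Described calls of the 16-tumour comparison that ended without I-732, I-736 and S-761 are named.

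In the 16 tumours, 197 genes differed between OE and NC at an edgeR adjusted p below 0.05, which is 1.28% of the genes tested. Higher in OE were 83 genes (0.54%) and lower 114 (0.741%). Without adjustment 2859 genes had a p under 0.05. The median log2 fold change of all genes tested was -0.02. All 197 had the same direction in the irradiated and in the unirradiated tumours, which the combined estimate favours by its construction. The OE and NC values did not overlap in 40 of the 197 genes, and in 55 (0.358%) of all genes tested. The number of calls depended on single tumours. Without 1 OE tumour it was 28 (EI-745), 41 (EI-752), 60 (EO-701), 72 (EI-742), 83 (EO-762), 85 (EIO-713), 119 (ES-706) or 299 (EO-703). Without 1 NC tumour it was 60 (I-736), 89 (IO-726), 105 (O-723), 145 (I-732), 261 (IO-728) or 391 (S-759), and 799 without S-761. Without I-739, 309 genes were called higher and 440 lower. Without I-732, I-736 and S-761 together it was 69, of which 45 were among the 197.

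**Figure D1:**
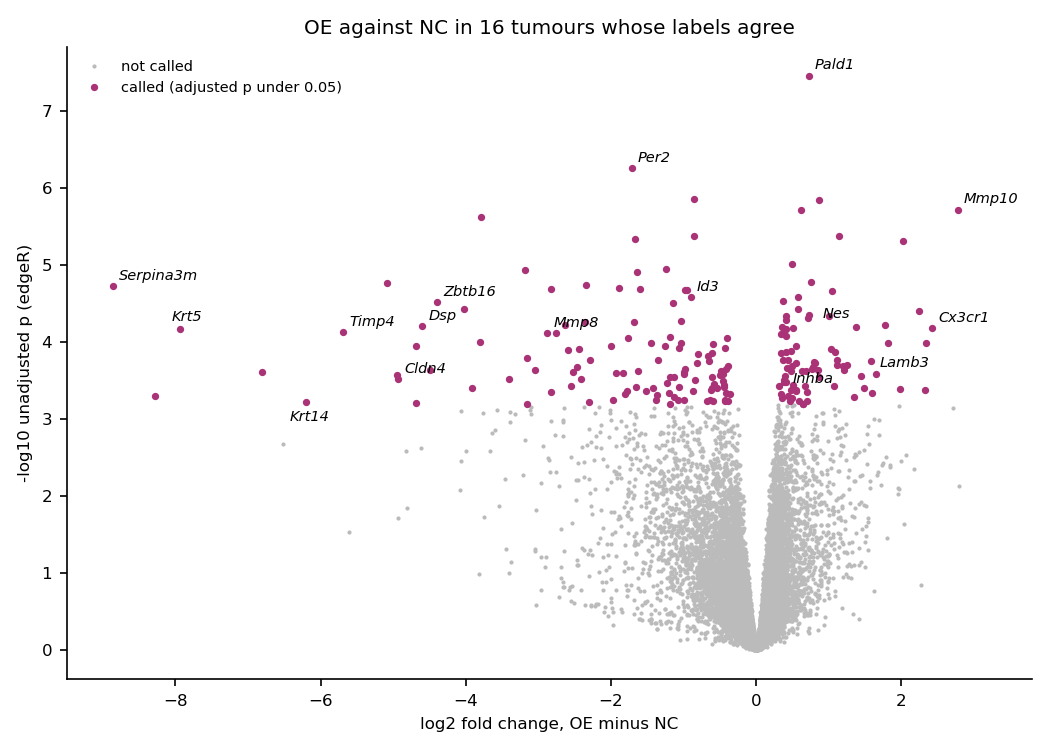
Each point is 1 of 15375 genes, with the log2 fold change (OE minus NC, radiation by code as covariate) on the x axis and the unadjusted edgeR p on the y axis as -log10. The 197 called genes are coloured; those below 0 reach -8.87 (Serpina3m) and those above 0 reach 2.78 (Mmp10).

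Mmp10 had the largest fold change among the genes called higher in OE. Mmp10 (chr9:7502342-7510242, GRCm38.p6) encodes stromelysin-2, a matrix metalloproteinase that cleaves matrix proteins and activates other proteinases. It stood at 3.22, 11.7 and 48.0 CPM (lowest, median, highest of 8) in OE and at 0.232, 2.40 and 9.78 CPM in NC. Within each radiation stratum every OE tumour lay above every NC tumour. Unirradiated OE tumours had 3.22 to 6.27 CPM and unirradiated NC tumours 0.232 to 1.11 CPM, and irradiated OE tumours had 17.2 to 48.0 CPM against 1.79 to 9.78 CPM. The log2 fold change came to 2.78 ± 0.39 (SE, edgeR adjusted p = 0.00493). Mmp10 was called in each of the 16 fits that left out 1 tumour, with values from 2.62 to 2.96.

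Inhba, Lamb3 and Sema7a were also called higher. Inhba (chr13:16004256-16031609) encodes the subunit of activin A, a ligand of the TGF-beta family. Its level was 38.2, 62.8 and 132 CPM in OE and 16.9, 29.6 and 43.8 CPM in NC. The groups overlapped in their ranges only through OE tumour EO-703. Its log2 fold change came to 1.25 ± 0.26 (edgeR adjusted p = 0.0318). Lamb3 (chr1:193294353-193343878), the beta chain of laminin-332 in epithelial basement membranes, stood at 2.33, 5.30 and 10.0 CPM in OE and at 0.739, 1.87 and 2.98 CPM in NC. OE tumour EIO-713 alone lay within the NC range, and the log2 fold change came to 1.58 ± 0.33 (edgeR adjusted p = 0.0305). Sema7a, a membrane-anchored semaphorin, had 105, 158 and 228 CPM in OE and 38.9, 68.6 and 121 CPM in NC, a log2 difference of 1.12 ± 0.23 (edgeR adjusted p = 0.0318). Of the 16 fits that left out 1 tumour, 9 called Inhba, 9 Lamb3 and 7 Sema7a. None of the 3 passed without I-732, I-736 and S-761, with edgeR adjusted p of 0.104, 0.0857 and 0.0904.

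Nes and Bcan separated the groups completely. Nes (chr3:87971093-87980451) encodes nestin, an intermediate filament protein of stem and progenitor cells and of new vessels. Nes was at 96.4, 116 and 150 CPM in OE and at 20.1, 46.8 and 95.7 CPM in NC. The fitted log2 fold change reached 1.37 ± 0.26 (edgeR adjusted p = 0.0209). Bcan, the matrix proteoglycan brevican, stood at 6.12 to 13.5 CPM in OE and 1.64 to 5.46 CPM in NC, with a log2 difference of 1.22 ± 0.26 (edgeR adjusted p = 0.0324). Minar2, Bank1 and Pnma5, with low levels, were higher too. Their log2 fold changes were 1.65 ± 0.36 (edgeR adjusted p = 0.0335), 1.59 ± 0.37 (edgeR adjusted p = 0.0422) and 1.35 ± 0.31 (edgeR adjusted p = 0.0456), in that order. Bank1 encodes a B cell scaffold protein. Grhl2, a transcription factor of epithelial cells, had 0.506, 0.864 and 1.92 CPM in OE and 0.129, 0.303 and 0.789 CPM in NC. The log2 fold change of Grhl2 was 1.78 ± 0.33 (edgeR adjusted p = 0.0209). With 1 tumour left out, Nes and Grhl2 were called in 14 of 16 fits, Bcan and Minar2 in 8, Bank1 in 5 and Pnma5 in 4. None of the 6 passed without I-732, I-736 and S-761, with edgeR adjusted p from 0.0545 (Bcan) to 0.115 (Bank1).

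Cx3cr1, the fractalkine receptor of macrophages and monocytes, was the only called gene among 21 markers of those cells. Unirradiated OE tumours held 213 to 345 CPM of Cx3cr1 (chr9:120048683-120068296), and unirradiated NC tumours 40.8, 152 and 173 CPM. Irradiated OE tumours held 77.6 to 116 CPM, and the 5 irradiated NC tumours 3.12 to 16.8 CPM. The strata did not overlap within themselves, and the log2 fold change came to 2.42 ± 0.46 (edgeR adjusted p = 0.0209). The summed level of the 21 markers overlapped widely, with 9410 to 19100 CPM in OE and 4980 to 26400 CPM in NC, and its part in the Cx3cr1 result was not tested.

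**Figure D2:**
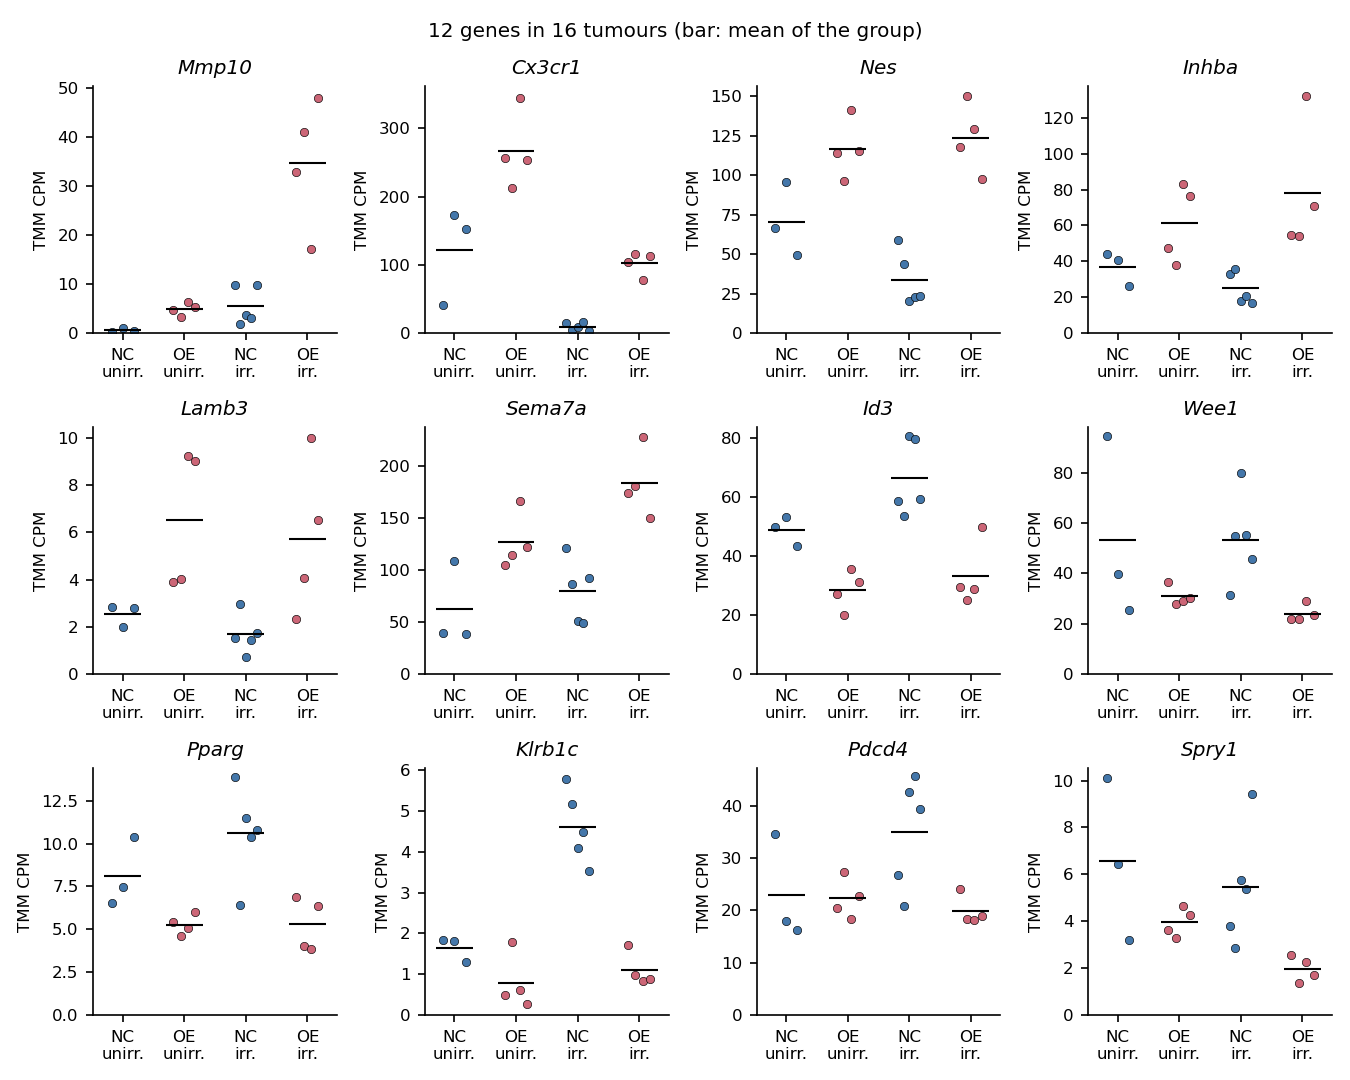
TMM-scaled CPM of 12 genes (y axes start at 0) in the 16 tumours, by cell line (blue NC, red OE) and radiation by code, with 1 point per tumour and a bar at the group mean. Mmp10, Cx3cr1, Nes, Inhba, Lamb3 and Sema7a sit higher in OE, Id3, Wee1, Pparg and Klrb1c lower, and Pdcd4 and Spry1 were not called.

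Keratins and desmosome genes of stratified epithelium were among the genes with the most negative fold changes. Krt5 stood at 0 to 0.208 CPM in the 8 OE tumours. Among the NC tumours it was 31.8 CPM in S-761 and 51.8 CPM in I-736, and 0.178 to 1.71 CPM in the other 6. Krt14 was at 40.2 and 149 CPM in S-761 and I-736, at 0.153 to 2.19 CPM in the other 6 NC tumours and at 0.0261 to 1.19 CPM in OE. The fitted log2 fold changes were -7.94 (SE 1.5) for Krt5 (edgeR adjusted p = 0.0209) and -6.20 ± 1.46 for Krt14 (edgeR adjusted p = 0.048). Both values moved towards 0 without the NC tumours that stood apart. Without I-732, I-736 and S-761, Krt5 was at -4.37 ± 0.83 (edgeR adjusted p = 0.0473) and Krt14 at -2.02 ± 0.80 (edgeR adjusted p = 0.208). Of the 16 fits that left out 1 tumour, 12 called Krt5 and 5 Krt14. DESeq2 gave neither gene an adjusted p.

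Genes of desmosomes, the junctions that tie keratin filaments of neighbouring cells together, included Dsp and Pkp1. Dsp (chr13:38151294-38198577), which encodes the desmosomal linker desmoplakin, stood at 0.0743, 0.256 and 0.391 CPM in OE and at 0.51, 1.78 and 29.6 CPM in NC. No OE tumour reached the NC range. Its OE minus NC difference (log2) was -4.60 ± 0.86 (edgeR adjusted p = 0.0209), and -2.48 ± 0.40 without the 3 NC tumours (edgeR adjusted p = 0.0216). Pkp1, plakophilin 1, was at -3.41 ± 0.75 (edgeR adjusted p = 0.0354), and at -1.78 ± 0.55 without the 3 NC tumours (edgeR adjusted p = 0.124). Krt17, Krt15, Dmkn, Trim29 and the tight junction gene Cldn4 were called as well, at log2 fold changes of -6.80, -5.08, -4.95, -4.50 and -4.93. Without the 3 tumours Dmkn and Trim29 were not called, and Krt17, Krt15 and Cldn4 fell under the filter on low counts. Of the 16 fits that left out 1 tumour, 14 called Dsp, 12 Krt15 and 8 each Dmkn and Trim29. Pkp1 was called in 7, Krt17 in 6 and Cldn4 in 5. DESeq2 gave Krt17, Dmkn and Trim29 no adjusted p. In all, 4 of 13 tested markers of basal squamous cells were lower in OE and 1, Lamb3, was higher, with a median log2 fold change of -2.46 beside -0.02 over all genes. Without the 3 NC tumours 0 were called higher and 1 lower, and the median was -0.23. DESeq2 gave an adjusted p to 7 of the basal squamous markers and called 2 higher and 2 lower. Of 5 tested keratinocyte differentiation markers edgeR called 0, with 2 lower at an unadjusted p under 0.05, and DESeq2 called 1 lower. The summed level of all 19 was 278 and 138 CPM in I-736 and S-761, and 5.13 to 29.1 CPM in the other 14 tumours. Trp63, the transcription factor of basal epithelium, was at -2.94 ± 0.81 (edgeR adjusted p = 0.0767).

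Serpina3m and Timp4 were both highest in NC tumour I-732. Serpina3m, a serine proteinase inhibitor with close paralogs whose reads may be shared, had 56.9 CPM in NC tumour I-732, 0 to 3.89 CPM in the other 7 NC tumours and 0 to 0.0279 CPM in OE. That is 2430 reads in NC and 3 in OE, a ratio of 819 after scaling to the library sizes, with an exact interval of 280 to 3970 (95%, counting error only). Its adjusted p was 0.0134 by edgeR, and DESeq2 gave it none. Timp4, an inhibitor of metalloproteinases, was at 9.55 CPM in I-732, 0 to 3.54 CPM in the other NC tumours and 0 to 0.105 CPM in OE, a log2 difference of -5.69 ± 1.08 (edgeR adjusted p = 0.0218). Beside them, I-732 held most of the skeletal muscle RNA; the part of that RNA in these values was not tested. Without I-732, I-736 and S-761, Serpina3m was at -5.88 ± 0.77 (edgeR adjusted p = 0.0173) and Timp4 at -4.98 ± 0.97 (edgeR adjusted p = 0.0495).

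Zbtb16 (chr9:48651797-48836225), a zinc finger repressor also known as PLZF, was lower in OE. Zbtb16 levels were 0.202, 0.431 and 0.991 CPM in OE and 0.697, 6.50 and 68.0 CPM in NC, and NC tumour S-759 alone lay within the OE range. The log2 fold change came to -4.40 ± 0.77 (edgeR adjusted p = 0.0159), and -3.66 ± 0.61 without I-732, I-736 and S-761 (edgeR adjusted p = 0.024).

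**Figure D3:**
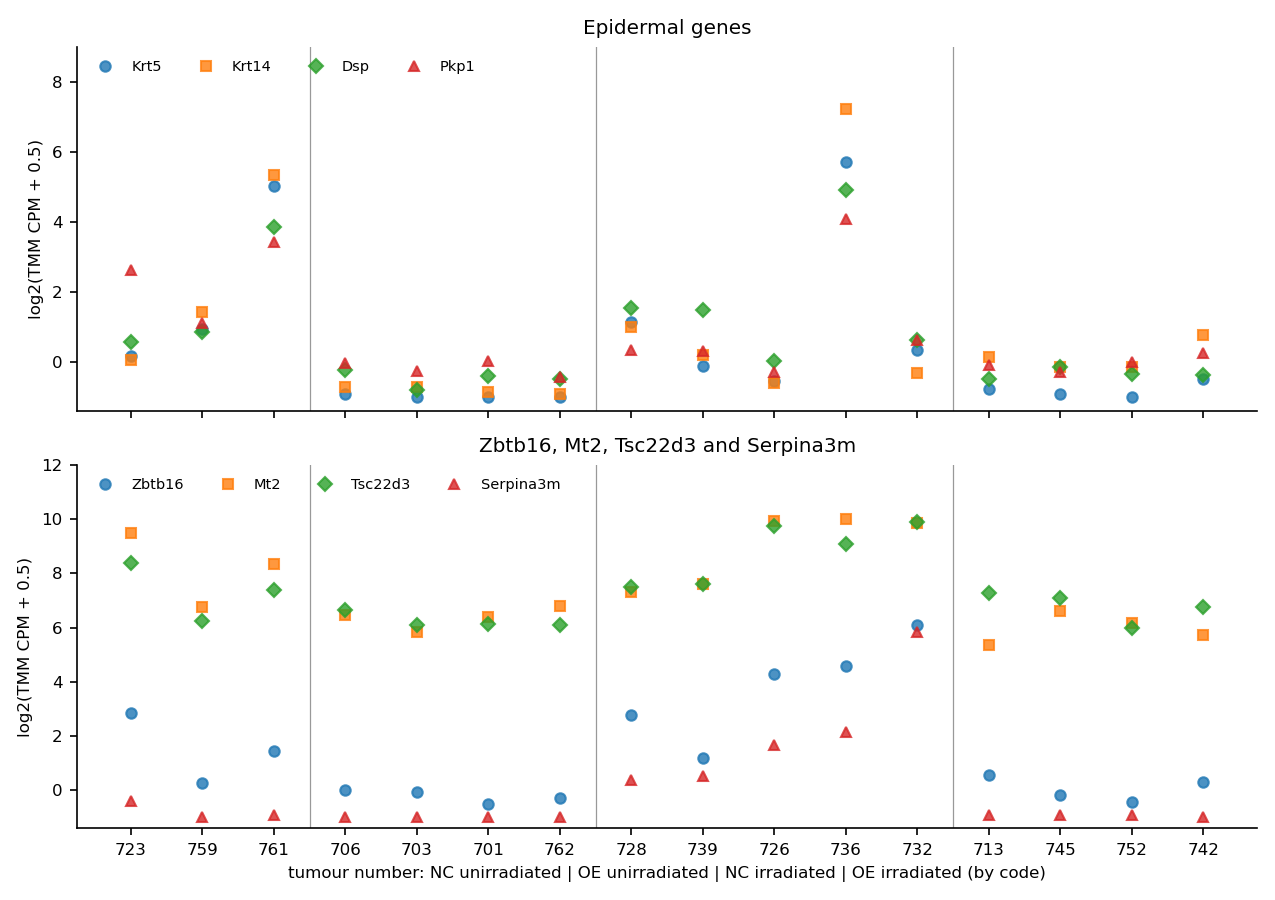
log2(TMM CPM + 0.5) in each of the 16 tumours, ordered by cell line and radiation by code; upper panel Krt5, Krt14, Dsp and Pkp1, lower panel Zbtb16, Mt2, Tsc22d3 and Serpina3m. The keratins stand out in NC tumours S-761 and I-736 and do not pass 1.19 CPM in any OE tumour, while the genes of the lower panel are highest in NC tumours IO-726, I-732 and I-736.

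Other genes lower in OE included Id3, Wee1, Pparg and Klrb1c. Id3 (chr4:136143822-136145392), an inhibitor of basic helix-loop-helix factors induced by BMP signals, stood at 19.9, 29.0 and 49.7 CPM in OE and at 43.2, 56.0 and 80.6 CPM in NC. Only OE tumour EI-742 reached the NC range. On the log2 scale its change was -0.90 ± 0.16 (edgeR adjusted p = 0.0149), and Id3 was called in all 16 fits that left out 1 tumour. Wee1, the kinase that holds cells before mitosis, had 21.8, 28.4 and 36.6 CPM in OE and 25.4, 50.1 and 94.5 CPM in NC, with a fold change on the log2 scale of -0.99 ± 0.23 (edgeR adjusted p = 0.0474). Pparg, the nuclear receptor of fat cell formation, was at -0.84 ± 0.18 (edgeR adjusted p = 0.0357). Its levels were 3.86 to 6.89 CPM in OE and 6.41 to 13.9 CPM in NC. Klrb1c, the receptor NK1.1 of natural killer cells, had 0.261, 0.861 and 1.78 CPM in OE and 1.30, 3.81 and 5.78 CPM in NC, at -1.63 ± 0.35 (edgeR adjusted p = 0.0324). Wee1 was called in 4 of the 16 fits, and Pparg and Klrb1c in 6. Leaving out I-732, I-736 and S-761, Wee1 and Id3 passed (edgeR adjusted p = 0.043 and 0.0479) and Pparg and Klrb1c did not (edgeR adjusted p = 0.103 and 0.0637).

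Mmp8 and S100a8, both products of neutrophils, were the only called genes among 9 tested neutrophil markers. Mmp8 (chr9:7558429-7568486) was at 0.0784, 0.318 and 0.866 CPM in OE and at 0.155, 6.07 and 10.7 CPM in NC, with S-759 and S-761 as the only NC tumours in the OE range. The estimated log2 change was -2.88 ± 0.55 (edgeR adjusted p = 0.0219), and that of S100a8 was -2.56 ± 0.57 (edgeR adjusted p = 0.0397). Mmp8 was called in 11 of the fits with 1 tumour left out and S100a8 in 6, and without I-732, I-736 and S-761 S100a8 did not pass (edgeR adjusted p = 0.115). The summed level of the 14 neutrophil markers was 158 to 299 CPM in OE and 112 to 218 CPM in NC, so the sum did not follow these 2 genes. Of the 9 tested markers 3 lay above 0, and the median log2 fold change was -0.93 beside -0.02 over all genes. Without the 3 NC tumours that median was -0.95. At an unadjusted p under 0.05 edgeR had 1 higher and 4 lower, and DESeq2 called 1 higher and 3 lower. Other marker lists gave few calls: 1 of 18 for cytotoxic and NK cells (Klrb1c), 1 of 10 for adipocytes (Pparg), and 0 by edgeR for fibroblasts, endothelium, pericytes, dendritic cells, T cells, B cells, mast cells, muscle, Schwann cells and erythroid cells. Each of these 10 lists had 0 to 5 members at an unadjusted p under 0.05, and DESeq2 called 2 fibroblast markers, 1 in each direction.

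A set of 26 called genes, 11 higher and 15 lower, was called in every one of the 16 fits that left out a tumour; it was formed after the values were seen. Pald1 (chr10:61319656-61383546), a phosphatase-like protein of endothelium, had the smallest p of all. It stood at 35.6, 43.7 and 47.5 CPM in OE and at 20.0, 23.7 and 33.6 CPM in NC, without overlap, for a log2 difference of 0.72 ± 0.07 (edgeR adjusted p = 0.000541). Hoxc13, a homeobox factor of hair and nail, was at 0.67 to 2.26 CPM in OE and 0.118 to 0.522 CPM in NC. Its log2 fold change came to 2.02 ± 0.30 (edgeR adjusted p = 0.00688). Pmepa1, a TGF-beta target that dampens the same pathway, rose by 1.04 ± 0.18 (edgeR adjusted p = 0.0134), and the matricellular protein gene Ccn3 by 0.76 ± 0.13 (edgeR adjusted p = 0.0134). Pmepa1 did not pass without I-732, I-736 and S-761 together (edgeR adjusted p = 0.0609).

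On the lower side of that set, Vegfd (chrX:164373522-164402650), a growth factor for lymphatic vessels, stood at 20.7, 25.5 and 30.4 CPM in OE and at 32.9, 45.4 and 62.4 CPM in NC, again without overlap. On the log2 scale the difference was -0.86 ± 0.13 (edgeR adjusted p = 0.00688). Per2, a repressor of the circadian clock, was at 3.29, 5.94 and 13.4 CPM in OE and 8.34, 21.7 and 33.8 CPM in NC. Only NC tumour S-759 lay within the OE range of Per2, and the log2 fold change came to -1.72 ± 0.22 (edgeR adjusted p = 0.00424). Sipa1l1, which acts on the GTPase Rap, was at -0.85 ± 0.12 (edgeR adjusted p = 0.00493). Gpnmb, a glycoprotein of lipid-laden macrophages and melanocytes, was at -1.60 ± 0.27 (edgeR adjusted p = 0.0134).

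The microRNA itself is not analysed here, so the overexpression was not checked at its own level. Vmp1 (chr11:86583858-86683836), whose transcript overlaps the hairpin, had 207, 270 and 317 CPM in OE and 204, 308 and 434 CPM in NC. The difference was -0.12 on the log2(CPM + 0.5) scale (exact permutation p = 0.4, two-sided, over the 4410 arrangements within the 2 radiation strata). A microRNA made from a vector need not change its host gene, so Vmp1 does not check the labels.

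None of 49 tested miR-21 targets was called in the 16 tumours by edgeR. At an unadjusted edgeR p under 0.05, 7 members were higher and 7 lower, beside 2859 of all 15375 genes in either direction. The DESeq2 test called 4 higher and 4 lower, beside 388 and 600 of all 15375. Without I-732 and S-761 edgeR called 0 higher and 3 lower, beside 207 and 250 of all 15450. Without I-736 as well it called 0 higher and 1 lower, beside 22 and 47 of all 15321. The median of the list was -0.00 on the log2 scale beside -0.02 over all genes. Pdcd4, an inhibitor of translation and a well-known target, had 18.1, 19.7 and 27.3 CPM in OE and 16.3, 30.7 and 45.7 CPM in NC. NC tumours O-723, IO-726, I-732 and I-736 lay above all OE tumours, and the other 4 did not. The log2 fold change of Pdcd4 was -0.49 ± 0.21 (edgeR adjusted p = 0.222).

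Spry1, an inhibitor of receptor tyrosine kinase signalling, had the smallest adjusted p of the fixed set of targets. It was at 1.37, 2.92 and 4.63 CPM in OE and at 2.86, 5.57 and 10.1 CPM in NC, with a log2 difference of -1.14 ± 0.28 (edgeR adjusted p = 0.0568). Spry1 was called without I-739, at -1.22 (edgeR adjusted p = 0.0269), and without I-732, I-736 and S-761, at -1.06 (edgeR adjusted p = 0.0495). Its relative Spry2 was at -0.47 ± 0.21 (edgeR adjusted p = 0.245). Timp3, an inhibitor of metalloproteinases held in the matrix, was at -0.77 ± 0.31 (edgeR adjusted p = 0.196), and Reck, a membrane-bound inhibitor of them, at -0.30 ± 0.19 (edgeR adjusted p = 0.401). By stratum Timp3 was at -1.58 ± 0.39 in unirradiated (edgeR adjusted p = 0.219) and -0.15 ± 0.35 in irradiated tumours (edgeR adjusted p = 0.823). The difference of these 2 effects was not called (edgeR adjusted p = 0.266). Tpm1, a tropomyosin, was at -0.08 ± 0.16, the antiproliferative gene Btg2 at -0.27 ± 0.30 and the GTPase gene Rhob at 0.55 ± 0.17 (edgeR adjusted p = 0.104 for Rhob).

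Over the 16 tumours, genes with a seed match did not have a lower median change than genes without one, and the 2 radiation strata differed in sign. The search used the longest annotated 3′ UTR (GENCODE, GRCm38) of each of 13621 tested genes, 98.5% of the protein-coding ones, for ATAAGCT, 7 bases, on the strand of the transcript; ATAAGCTA is the part of these matches followed by an A. At least 1 match was found in 1049 genes (7.7%), and the longer form in 309. Genes with a match had a median log2 fold change of 0.01 and those without of -0.02. Of those with a match 47.9% lay below 0, against 52.8% of the others. Among the 1049, 14 were called higher and 3 lower, beside 83 higher and 114 lower of all 15375 genes tested. The difference of the medians was 0.03. Taken in single tumours, this difference had an SD of 0.08 within groups on the log2 scale. That SD is not the error of a difference between groups, and no test was made. In irradiated tumours the medians were -0.05 with and -0.01 without a match. The longer form had a median of -0.07 there, and 58.6% of its genes lay below 0, against 50.8% of the others. In unirradiated tumours the medians were 0.08 with and -0.04 without a match. For the longer form the median was 0.09, and 33.0% of its genes lay below 0, against 54.5% of the others. Within the target list, 36 of 49 members had a match, with a median of -0.00. A match is a description of letters and not a functional site.

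No gene of alternative end joining was called by edgeR or by DESeq2 among 19 tested, and 2 were higher at an unadjusted p under 0.05 by edgeR. The list's median was 0.13 beside -0.02 over all genes. It was -0.02 in unirradiated and 0.15 in irradiated tumours. Without I-732 and S-761 the median was 0.01, with 1 gene called higher by edgeR. Without I-736 as well it was -0.02, with 0 called. Polq, the polymerase of that pathway, had 5.95, 7.92 and 13.0 CPM in OE and 1.90, 7.38 and 13.5 CPM in NC, with a log2 difference of 0.18 ± 0.29 (edgeR adjusted p = 0.773). The highest NC value of Polq is that of I-739; the other 4 irradiated NC tumours had 1.90 to 5.60 CPM and the irradiated OE tumours 5.95 to 8.08 CPM. Polq was at 0.50 without I-739 (edgeR adjusted p = 0.159) and at -0.07 without I-732, I-736 and S-761 (edgeR adjusted p = 0.919). Parp1, whose protein binds broken DNA and is blocked by olaparib, stood at 0.22 ± 0.16 (edgeR adjusted p = 0.473), and Lig3, the ligase, at 0.10 ± 0.13 (edgeR adjusted p = 0.71). Lig3 was at 0.17 without I-739 and at -0.04 without the 3 other NC tumours. The ranges of the groups overlapped for all 3 genes.

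Other repair lists gave 0 calls by edgeR: classical end joining (19 tested, median -0.04), homologous recombination (25, median 0.09), Fanconi anaemia (15, median 0.10) and base excision repair (14, median 0.04). Each held 0 to 2 genes at an unadjusted p under 0.05, and DESeq2 called 1 gene in all, in base excision repair. Without I-732, I-736 and S-761 the medians of these lists were 0.01, -0.02, -0.04 and -0.04, in that order. In the ATM and ATR checkpoint list Wee1 was lower and the other 11 were not called. For 37 p53 targets the median was 0.01 with 0 called by edgeR, 2 by DESeq2 and 5 with an unadjusted edgeR p below 0.05, and Cdkn1a at 0.17 ± 0.15 (edgeR adjusted p = 0.561).

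Genes of DNA replication and of mitosis lay slightly above 0 almost throughout, with 0 calls by edgeR and by DESeq2 (1 gene at an unadjusted p under 0.05). Of 36 DNA replication genes 36 had a log2 fold change above 0 (median 0.19), and of 34 mitosis genes 33 (median 0.24); 46.7% of all genes tested lay above 0. Genes of one process share their variation between tumours, so the counts of direction are not independent. The medians were 0.40 and 0.50 in the irradiated tumours and -0.09 and -0.16 in the unirradiated ones. Without I-732, I-736 and S-761 the medians over both strata were 0.10 and 0.03. Mki67 itself was at 0.22 ± 0.27 (edgeR adjusted p = 0.692), at 0.50 without I-739 (edgeR adjusted p = 0.154) and at -0.04 without the 3 other NC tumours (edgeR adjusted p = 0.956). Type I interferon response genes leaned the other way, with 2 of 29 above 0 and a median of -0.36, and 0 called by edgeR, with 6 lower at an unadjusted p under 0.05 and 3 lower by DESeq2. Their median was -0.77 in unirradiated and 0.01 in irradiated tumours.

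Calls on the signalling and matrix lists were few and went in both directions. Among 23 TGF-beta response genes Inhba was higher and Id3 lower (median 0.10). In the list of 21 matrix metalloproteinases and inhibitors Mmp10 was higher and Mmp8 and Timp4 lower (median 0.17), and in that of epithelial-mesenchymal transition Grhl2 was higher and Cldn4 lower of 19 (median -0.07). For NF-kB and acute inflammation the median was 0.38 with 0 of 22 called by edgeR, 9 higher and 3 lower at an unadjusted p under 0.05, and 5 higher and 2 lower by DESeq2. The lists for the microRNA pathway, apoptosis, interferon gamma, hypoxia, cholesterol synthesis, oxidative phosphorylation, ribosomal proteins and NRF2 held 0 calls by edgeR, with medians from -0.19 to 0.12. Hypoxia and glycolysis genes had medians of -0.68 in unirradiated tumours, where 0 of 27 lay above 0, and 0.18 in irradiated ones. The difference of these effects had an unadjusted p under 0.05 in 16 of the 27, and edgeR called 0 of them. In these 8 lists DESeq2 called 0 to 3 members each, and 0 to 6 had an unadjusted p under 0.05 by edgeR.

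**Figure D4:**
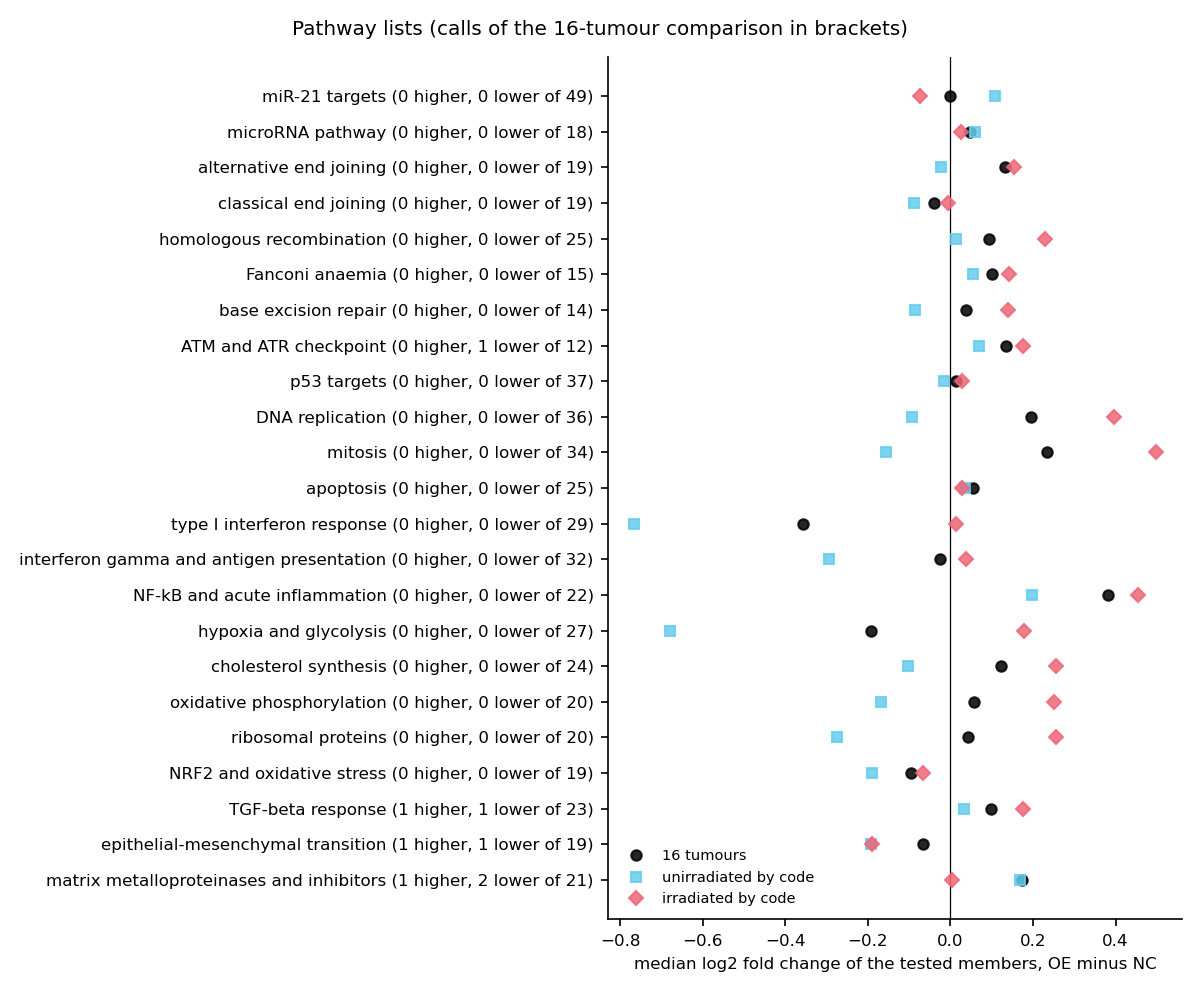
Median log2 fold change (OE minus NC, x axis) of the tested members of 23 pathway lists in the 16 tumours and in each radiation stratum, with the calls of the 16-tumour comparison in brackets. DNA replication and mitosis lie at 0.40 and 0.50 in irradiated tumours and below 0 in unirradiated ones; type I interferon genes lie at -0.77 in unirradiated tumours.

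Split by radiation, 4 irradiated OE tumours differed from 5 irradiated NC tumours in 654 of 16007 genes (4.09%), 332 higher (2.07%) and 322 lower (2.01%). Of these, 126 were also called in the 16 tumours, 64.0% of the latter's calls and 19.3% of the former's. Between 4 unirradiated OE and 3 unirradiated NC tumours edgeR called 0 genes (0%), with 1639 at an unadjusted p under 0.05, and DESeq2 188. The difference of the 2 effects, tested directly, also gave 0 calls (0%) by edgeR, with 2365 at an unadjusted p under 0.05, and 313 by DESeq2. An effect seen in 1 stratum only was therefore not shown by edgeR. Single tumours again moved the irradiated count. Without an irradiated OE tumour it was 49 (EI-742), 50 (EI-745), 192 (EI-752) or 250 (EIO-713). Without an irradiated NC tumour it was 159 (I-732), 160 (I-736), 187 (IO-726), 1033 (IO-728) or 2326 (I-739). Leaving out an unirradiated tumour gave 343 (EO-762), 357 (ES-706), 369 (EO-701) or 1143 (S-761) where it moved the count by more than 1.5 times. Leaving out I-732, I-736 and S-761 gave 17, of which 16 were among the 654. The irradiated calls named next are those with all tumours kept.

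In the irradiated tumours Cx3cr1 was higher by 3.44 ± 0.46 on the log2 scale (edgeR adjusted p = 0.00683), against 1.10 ± 0.51 in the unirradiated ones (edgeR adjusted p = 0.482). The difference of these effects had an edgeR adjusted p of 0.19 (unadjusted 0.00271). Nes was at 1.89 ± 0.28 (edgeR adjusted p = 0.00937) and 0.71 ± 0.33 (edgeR adjusted p = 0.481). Mmp10 was at 2.64 ± 0.49 (edgeR adjusted p = 0.0154) in the irradiated and at 2.98 ± 0.65 (edgeR adjusted p = 0.127) in the unirradiated tumours. Among the miR-21 targets 4 of 49 were lower and 2 higher in irradiated tumours, beside 2.01% and 2.07% of all genes. The list's median there was -0.07. The lower ones were Ppara at -4.27, Arhgap24 at -0.95, Spry1 at -1.46 and Trp63 at -5.06, and the higher ones Smad7 at 0.88 and Lrrfip1 at 0.63. Of the 19 alternative end joining genes 2 were higher there, beside 2.07% of all genes. They were Ercc1 (0.77, edgeR adjusted p = 0.0334) and Mre11a (0.47, edgeR adjusted p = 0.0494), both of which trim DNA ends. Their interaction with radiation was not called. Of 14 tested basal squamous markers 5 were higher (0.93 to 1.79) and 2 lower there. The median of the 14 was -3.53, with only 5 above 0 and 8 lower at an unadjusted p under 0.05 by edgeR. Higher members included Lamb3, Itgb4, Itga6 and Sox2, and the lower ones were Krt15 and Trp63; members of lists in irradiated tumours were named after their values were seen. Itgb4 and Itga6 encode the chains of an integrin that binds laminin-332.

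The 8 tumours with conflicting labels were not used in the comparison and offer the same measure in other mice. Taking their cell line from the code (4 OE, 4 NC, radiation by code as covariate), edgeR called 0 of 16027 genes (0%), with 632 at an unadjusted p under 0.05, and DESeq2 called 18. Tumour EIO-744, coded OE, stood apart. Its summed fibroblast markers reached 123000 CPM, against 7010 to 11900 CPM in the other 23 tumours of the series, and its immediate early genes 9700 CPM against 665 to 2060 CPM. Leaving out 1 tumour kept the edgeR count at 0. The number at an unadjusted p under 0.05 was then 291 (ES-741), 339 (IO-731), 392 (O-724), 401 (O-722), 1577 (EIO-744) or 1590 (EIO-749) where it moved by more than 1.5 times. A value with the sign it had in the 16 tumours follows the code, and one with the opposite sign follows the written label. Of the 83 genes higher in the 16 tumours 73 (88.0%) had a positive value by code, and of the 114 lower ones 73 (64.0%) a negative one, against 54.0% with the same sign among 15192 genes tested in both. Genes share their variation within these tumours, so no p is given. This agreement depended on EIO-749, coded OE. Without it 39 of the 83 and 56 of the 114 kept their sign, beside 45.3% of all genes. Without EIO-744 it was 78 of 83 and 87 of 112, beside 64.7% of all genes. The sizes over all 8 tumours were smaller than in the 16, with a median of 0.18 against 0.68 for the higher genes and -0.07 against -1.37 for the lower.

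Of the 197 genes 13 had the same direction by code with an unadjusted p under 0.05, and 0 the opposite direction. Leaving out 1 tumour gave 4 (O-722), 5 (IO-731), 6 (ES-709), 8 (S-758 or ES-741) or 55 (EIO-744) where it moved this number by more than 1.5 times. Without EIO-749 it was 13, with 2 in the opposite direction. Over all genes tested the number was 401 (O-722), 339 (IO-731), 609 (ES-709), 542 (S-758), 291 (ES-741), 1577 (EIO-744) or 1590 (EIO-749). Among those irradiated by code, Mmp10 stood at 12.8 and 32.9 CPM in the 2 coded OE and at 2.58 CPM in the 1 coded NC. Among those unirradiated by code, it stood at 2.08 and 4.14 CPM in tumours coded OE. The unirradiated tumours coded NC had 0.976, 1.54 and 2.37 CPM, which overlapped these. The log2 difference of Mmp10 was 1.65 ± 0.66 (unadjusted p = 0.0392 by edgeR). It was 0.96 to 2.21 when 1 tumour was left out, with unadjusted p from 0.0184 to 0.152. Minar2 was at 1.56 ± 0.57 (unadjusted p = 0.0286), with 1.27 to 5.74 CPM in tumours coded OE and 0.925 to 2.06 CPM in those coded NC. The others were Ksr2 and Morrbid, higher, and Kcnh1, B4galnt4, Shank1, Sytl3, Sh2d1b1, Fam131b, Gcdh, Zxdc and Tns2, lower. After adjustment over all genes none of the 13 passed. Krt5 was high in 1 tumour of each code, at 87.1 CPM in tumour IO-731, coded NC, and at 107 CPM in tumour EIO-744, coded OE, with a log2 difference of 0.25 and an unadjusted p of 0.866 by edgeR. For Zbtb16 the value was 1.02 (unadjusted p = 0.405), and for Cx3cr1 it was -0.18 (unadjusted p = 0.787).

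**Figure D5:**
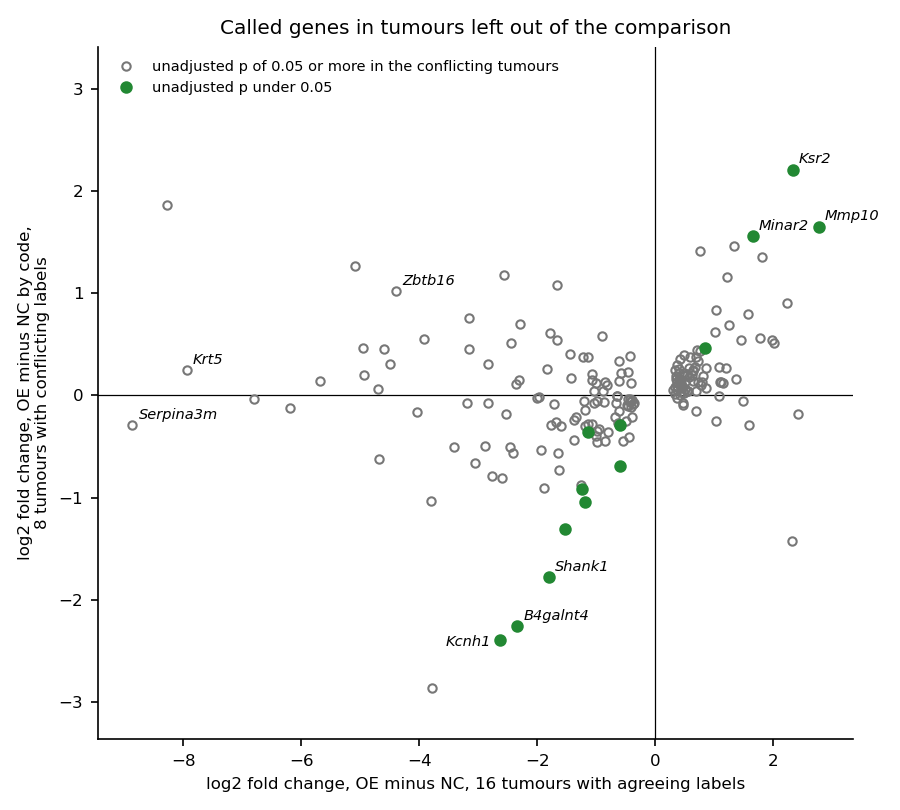
Log2 fold change of the 197 called genes in the 16 tumours (x axis) and, by code, in the 8 tumours with conflicting labels (y axis); filled points had an unadjusted p under 0.05 in the latter. Of the 83 higher genes 73 lie above 0 on the y axis, Mmp10 among them (39 without EIO-749), while Krt5 lies at 0.25 and Serpina3m at -0.29.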

How the data were processed

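The authors deposited 1 table of whole-number read counts per gene (27368 genes, 24 tumours). Per the labels' protocols, total RNA was isolated with TRIzol, and the VAHTS Universal V5 kit was used for the libraries. The submitters' processing notes name fastp, HISAT2, HTSeq and the mm10 build; versions, annotation and strand setting are not given in the sources used here. Genes that overlap, lie antisense or have near-identical copies (Mt1 and Mt2, keratin pseudogenes, the Serpina3 family) are therefore uncertain.

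The deposited counts were tested with edgeR 4.0.16 in R 4.3.3: TMM scaling, filterByExpr, and the quasi-likelihood test with cell line and radiation by code as terms. Calls are genes at a Benjamini-Hochberg adjusted p under 0.05 over all genes tested. The irradiated and unirradiated contrasts and their difference came from 1 fit of 4 groups, and the 8 tumours with conflicting labels had a fit of their own. SE is the log2 fold change divided by the square root of the F statistic. DESeq2 1.42.0, limma 3.58.1 (voom with sample quality weights), other scalings, filters and covariates, and the loss of each tumour were alternatives. The scripts were first tested on simulated data.

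P-values measure the spread between these tumours. No 2 libraries agreed within sampling noise. Reads carry no molecular identifiers, so counting intervals cover counting error only. Named genes were up to 10 per direction with the largest fold change among called genes at a mean of at least 1 CPM, up to 2 called members of each list, and a fixed set of targets and repair genes; others are said to be chosen after their values were seen. Of 864 list entries 855 matched by symbol and 2 by an older one. Coordinates are RefSeq GRCm38.p6 and UTRs GENCODE vM21. Some genes and 1 list are not reported here. The members and lists were chosen with earlier results of these data known.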

Additional observations from a re-analysis of the deposited data

Results flagged for a closer look

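In 90 groups of 8 tumours, formed by the named genes and the cell line, 2 had a highest tumour far from its group by Dixon's criterion, which chance meets in about 1 in 20 groups. Serpina3m stood at 56.9 CPM in NC tumour I-732, against 0 to 3.89 CPM in the other 7 NC tumours. Krt5 stood at 0.208 CPM in OE tumour EI-742, against 0 to 0.0804 CPM in the other 7 OE tumours.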

How the results depend on the processing

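For the 16 tumours edgeR called 197 genes. The count was 988 with the DESeq2 test, 61 with radiation as written, 103 with the spread from all 24 tumours, 78 over all 24 with cell line by code, 0 as written (1493 at an unadjusted p under 0.05) and 2331 with limma voom and sample quality weights. With radiation and olaparib by code as covariates it was 144, of which 136 were among the 197. It was 457 without I-732 and S-761, and 69 without these and I-736, a removal chosen after seeing the data. The share called higher, 42.1%, was 53.8% over all 24 by code and 55.6% with voom. Leaving out 1 tumour gave 28 to 799 calls. In irradiated tumours the count of 654 was 1780 with DESeq2, 390 without a filter on low counts, 17 without the 3 NC tumours, and 49 to 2326 without 1 tumour. In unirradiated tumours it was 188 with DESeq2 and 0 to 27 without 1 tumour (27 without S-759); for the difference of the effects it was 313 with DESeq2 and 0 to 38 without 1 tumour (38 without IO-728). DESeq2 called 18 genes in the tumours with conflicting labels. Krt15 turned to 0.23 over all 24 tumours by code (edgeR adjusted p = 0.951). The cause of these changes was not tested. Genes under 1 CPM rest on few reads, and 27 of the 197 lie there. No paired analysis was possible because the numbers in the labels are unique to each tumour.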

Other observations

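A list of genes that glucocorticoid hormones induce was drawn up after the values were seen. Of 21 tested, 4 were called lower in OE (Zbtb16, Tsc22d3, Mt1 and Mt2), all 21 lay below 0, and the median log2 fold change was -1.54 beside -0.02 over all genes. Mt2, a metallothionein that binds zinc and copper, stood at 40.2, 77.2 and 111 CPM (lowest, median, highest) in OE and at 109, 518 and 1020 CPM in NC, at -2.82 ± 0.48 (edgeR adjusted p = 0.0134). NC tumours I-736, IO-726, I-732 and O-723 held the highest levels of Mt2. Tsc22d3, a leucine zipper protein that mediates part of the hormone's effect on inflammation, was at -1.84 ± 0.40 (edgeR adjusted p = 0.0332), and Fkbp5, a co-chaperone of the hormone receptor, at -1.41 ± 0.35 (edgeR adjusted p = 0.056). Without I-732, I-736 and S-761, 2 of the 21 were called lower (Zbtb16 and Mt2) and the median was -1.25. Tsc22d3 and Mt1 did not pass there (edgeR adjusted p = 0.0805 and 0.0628). In the irradiated tumours 13 were lower (median -2.07) and in the unirradiated ones 0 by edgeR (median -0.96). In the 8 tumours with conflicting labels, by code, 6 lay below 0 and the median was 0.27.

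Of 17 tested genes of the circadian clock, a list also drawn up after the values were seen, Per2 alone was called, and the median was -0.18. The times of day at which tumours were taken are not given in the sources used here.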
